A study of Mus musculus with 2 samples.

Results

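The nuclei described here are 625 barcodes from mouse eye tissue that were selected as retinal pigment epithelium (RPE). They were chosen by expression: at least 200 detected genes, under 10% of UMIs from mitochondrial genes, at least 4 UMIs and at least 0.2% of the barcode's UMIs from Rpe65, Lrat, Rgr, Rrh and Best1 together, and at most 1 UMI from the Müller glia genes Abca8a and Crb1. A UMI is a counted RNA molecule. The selection held 3.71% (95% exact binomial interval 3.43 to 4.002%) of 16867 kept nuclei, out of 17285 barcodes, and no barcode occurred more than once. The study used SeekSpace, which gives each nucleus of a tissue section an expression profile and a position on a capture chip. Its design concerns C57BL/6J mice with 1 missense copy of Prph2, a gene of photoreceptor outer segments, set against wild types of the same age and sex, with spatial data at 6 months. The single specimen, T1, carries no genotype or replicate in the labels and received no experimental treatment. Its 2 libraries (expression and position) therefore belong to no group here, and genotypes were neither compared nor inferred. Per the labels, T1 is 1 cryosection of 10 µm from 1 eye, with retina as the tissue, so every value below comes from 1 expression library without replicates, and no p-value was computed.

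The RPE is a single layer of pigmented cells between the photoreceptors and the choroid. It returns 11-cis retinal to the photoreceptors (the visual cycle), takes up the tips that outer segments shed, moves glucose, lactate, ions and water between blood and retina, and secretes factors toward both. Its melanin is made largely before adulthood, whereas choroidal melanocytes lie just outside it.

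Levels are given as CPM, the pooled UMIs of a gene in the 625 nuclei divided by their total and scaled to 1000000, with an exact Poisson 95% interval. The binomial and Poisson intervals cover counting error only, not the spread among nuclei or animals. The values of the 5 selecting genes describe the selection and support nothing. Rgr (ENSMUSG00000021804, chr14:37034909-37049014), a retinal opsin that feeds the visual cycle, was found in 625 of 625 nuclei at 9079.7 CPM (8981 to 9179). Rpe65 (ENSMUSG00000028174, chr3:159599075-159625307), the isomerase of the cycle, was found in 90.9% at 3053 CPM (2996 to 3111), and Lrat, which esterifies retinol, in 85.0% at 1123 CPM (1088 to 1158). Rrh (peropsin) was found in 49.6% at 228 CPM (213 to 244), close to the 179 CPM of Müller glia-like nuclei. Best1, a chloride channel by which the RPE is often defined, had 3 UMIs in all the nuclei together. The selection therefore rested on Rgr, Rpe65 and Lrat. The median nucleus had 39 UMIs of the 5 genes, or 1.34% of its UMIs. At the edge of the rule, 9 nuclei had exactly 4 such UMIs and 13 nuclei outside had 3. The lowest share inside was 0.226% and the highest outside was 0.196%, among 31 nuclei with enough UMIs but too low a share. The limit on Abca8a and Crb1 left out 6 nuclei.

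The label was checked on genes that the rule did not use. Rdh10 (chr1:16105882-16132550), a retinol dehydrogenase, stood at 1163 CPM (1128 to 1199), against 128 CPM in Müller glia-like nuclei, the next class. Slc16a1 (chr3:104638664-104658462), a lactate transporter, stood at 728 CPM (701 to 757), against 365 CPM in pericyte and smooth muscle-like nuclei, a class that also carried endothelium markers (below). Rdh10 was found in 81.4% of the RPE nuclei and in 3.61% of fibroblast-like nuclei, which should lack it; after thinning each nucleus to 500 UMIs the shares were 41.7% and 1.40%. The same shares for Slc16a1 were 74.6% and 1.75%, and 24.9% and 0.508% after thinning. Müller glia-like nuclei, of a median depth of 2963.5 UMIs, had 26.6% for Rdh10 and 32.2% for Slc16a1, or 5.18% and 5.89% after thinning. Median depths were 3168 UMIs in the RPE and 1430 UMIs in fibroblast-like nuclei, and thinning left out 26 and 72 shallower nuclei (12 Müller glia-like). Both markers thus stood highest in the RPE nuclei among the classes compared. In a clustering of all kept nuclei into 42 clusters, 617 of the 625 fell in 2 RPE-like clusters, with 352 nuclei (median 5736 UMIs) in the deeper and 265 (median 1065 UMIs) in the shallower cluster. The clusters were named by 7 markers, the 5 selecting genes with Slc16a1 and Rdh10. The selecting genes were not excluded from the clustering either, so this overlap does not check the label separately. These clusters also held 45 nuclei outside the selection, with a median of 669 UMIs and 2 UMIs of the selecting genes. The other 8 members lay in clusters of other cells, among them an amacrine-like nucleus of 8438 UMIs and a fibroblast-like nucleus of 4543 UMIs, which carry some results on tissue pieces below. No doublet caller was run, so doublets remain.

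Promoters of 7 genes that stood highest in the RPE nuclei are shown, because MITF and OTX2, transcription factors known to act on RPE genes, have short recognition sequences. Each line holds the 150 bases before the start in RefSeq's promoter table, 5′ to 3′ on the gene's own strand in GRCm38.p6 (mm10), with a match to either sequence in capitals. For Rpe65, Slc39a12 and Slc16a8 that start lies inside the annotated gene, so part of the window is transcribed in a longer form. The positions are chr14:37049015-37049164 (minus strand) for Rgr, chr3:159599031-159599180 (plus) for Rpe65, chr9:44101620-44101769 (plus) for Mfrp, chr2:14388248-14388397 (plus) for Slc39a12, chr15:79254749-79254898 (minus) for Slc16a8, chr9:123678833-123678982 (minus) for Slc6a20a and chr14:48667645-48667794 (minus) for Otx2.
Rgr: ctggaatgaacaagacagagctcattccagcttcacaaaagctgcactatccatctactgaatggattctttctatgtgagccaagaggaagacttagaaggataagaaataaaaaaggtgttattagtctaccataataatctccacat
Rpe65: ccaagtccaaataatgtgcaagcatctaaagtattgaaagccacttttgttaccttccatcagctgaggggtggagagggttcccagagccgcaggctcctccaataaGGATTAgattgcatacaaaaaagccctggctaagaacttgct
Mfrp: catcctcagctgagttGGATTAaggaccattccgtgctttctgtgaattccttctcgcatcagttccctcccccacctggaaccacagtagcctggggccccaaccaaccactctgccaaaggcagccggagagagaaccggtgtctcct
Slc39a12: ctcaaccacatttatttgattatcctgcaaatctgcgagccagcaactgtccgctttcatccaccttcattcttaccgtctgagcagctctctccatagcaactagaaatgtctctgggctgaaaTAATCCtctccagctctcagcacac
Slc16a8: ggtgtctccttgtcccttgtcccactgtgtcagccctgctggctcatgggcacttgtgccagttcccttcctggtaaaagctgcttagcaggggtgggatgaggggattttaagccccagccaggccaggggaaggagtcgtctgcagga
Slc6a20a: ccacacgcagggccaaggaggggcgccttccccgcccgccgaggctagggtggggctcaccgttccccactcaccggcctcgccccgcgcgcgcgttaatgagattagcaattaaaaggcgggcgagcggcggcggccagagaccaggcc
Otx2: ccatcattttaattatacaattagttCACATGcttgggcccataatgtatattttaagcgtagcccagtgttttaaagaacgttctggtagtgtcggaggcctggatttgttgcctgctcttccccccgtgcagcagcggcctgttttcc
The OTX-type sequence, TAATCC or its reverse GGATTA, stood 42 to 37 bases before the start of Rpe65, 134 to 129 before Mfrp and 25 to 20 before Slc39a12. The MITF-type E-box, CATGTG or CACATG or CACGTG, stood 124 to 119 bases before Otx2. Rgr, Slc16a8 and Slc6a20a had neither in this window. Of 89 RPE-high genes (defined below) with a promoter in the table, out of 122, 7 (7.87%) held the OTX-type sequence, against 3.59% of all 27025 promoters and 2.79% of the 8100 genes measured in the RPE nuclei. For the E-box the numbers were 11 of 89 (12.4%), 11.1% and 10.3%. These are matches of letters and not sites of binding.

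The next question was which genes set the RPE nuclei apart from the 17 other cell classes of at least 50 nuclei, which were named from marker genes ("rod-like" and so on). A gene with at least 20 UMIs was called RPE-high when its lower bound reached 2 times each other class's upper bound. Of 10247 such genes, 122 were RPE-high (1.19%), and 813 stood above every other class by any margin. Since expression chose the nuclei, these counts describe them and test nothing. Of 210 measured genes in 16 lists of RPE functions, 39 were RPE-high, 3 of them selecting genes; without the selecting genes 36 of 206 were. The median log2 ratio to the highest other class was -1.36 over all genes tested, and it was above 0 in 4 lists.

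**Figure D1:**
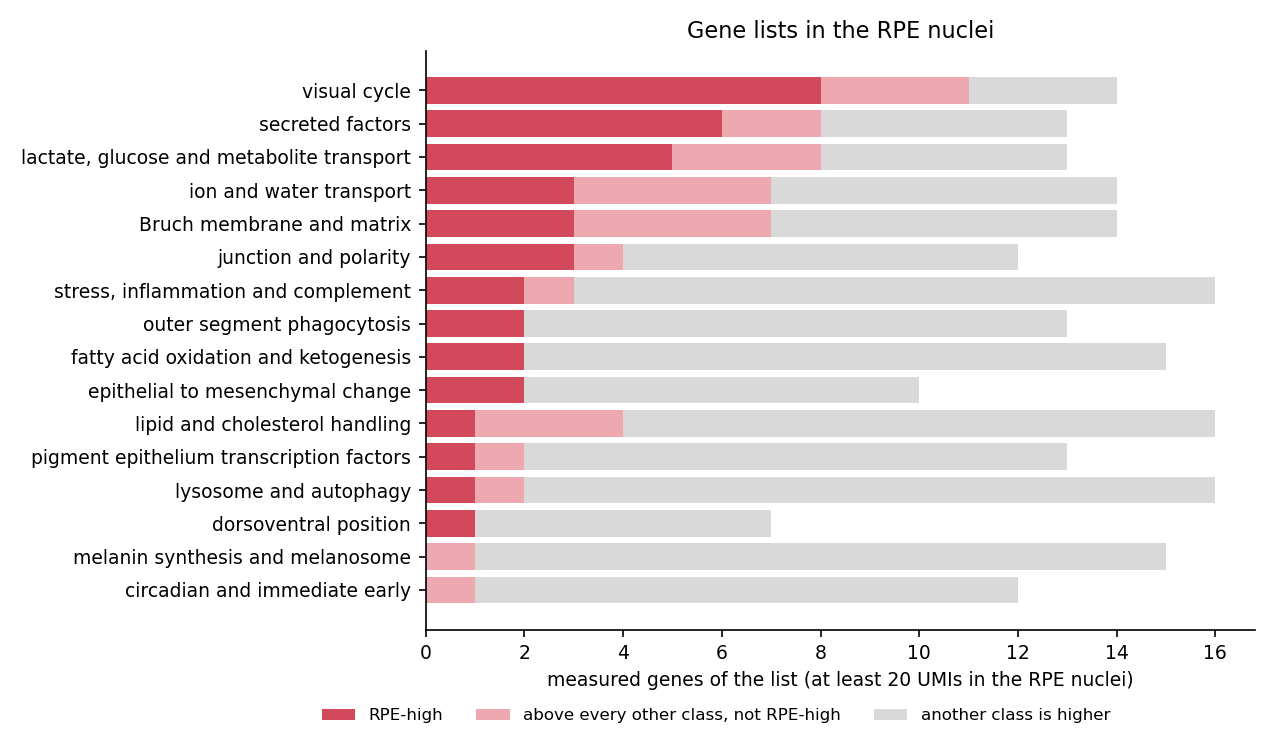
Number of measured genes in each of 16 gene lists (horizontal axis), split into RPE-high genes (dark), genes above every other class but not RPE-high (pale) and genes led by another class (grey). The visual cycle has 8 of 14 RPE-high, of which 3 are selecting genes, and the melanin list 0 of 15.

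The visual cycle list had 8 of 14 RPE-high members and a median log2 ratio of 2.35. It contains 4 of the selecting genes, and without them 5 of 10 were RPE-high with a median of 1.36. Among these 5, Rdh5 (chr10:128913588-128920037), the 11-cis retinol dehydrogenase, stood at 2422 CPM (2371 to 2473) against 28.0 CPM in melanocyte-like nuclei. Stra6, the retinol receptor, stood at 1281 CPM (1244 to 1319) against 164 CPM in pericyte and smooth muscle-like nuclei. Rdh10 and Degs1 were also RPE-high. Rlbp1, the retinal carrier CRALBP, stood at 1867 CPM (1823 to 1912), only 1.89 times the 988 CPM of Müller glia-like nuclei. Abca4, a flippase known from photoreceptor discs and reported in RPE, stood at 1081 CPM (1047 to 1116) against 3401 CPM in rod-like nuclei. Rbp4, the serum retinol carrier, was at 0 UMIs, which allows up to 0.835 CPM (3 counts).

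Melanin synthesis went the other way. None of its 15 measured genes was RPE-high, the median log2 ratio was -4.33, and melanocyte-like nuclei led 13 of them. The enzymes and matrix proteins of the melanosome were low: Tyrp1 stood at 60.4 CPM (52.6 to 69.0) against 3911 CPM in melanocyte-like nuclei, Pmel at 17.8 CPM (13.7 to 22.7) against 2245 CPM, and Mlana at 6.12 CPM (3.84 to 9.27) against 599 CPM. Oca2, a melanosomal anion channel, was the highest of the list at 454 CPM (433 to 477) against 2706 CPM. Tyr, tyrosinase, stood at 241 CPM (225 to 257) against 1059 CPM. Relative to melanocytes these genes ranged from 0.00794 times their level for Pmel to 0.227 times for Tyr. Mitf, the factor that drives these genes in pigment cells, stood at 710 CPM (683 to 738), or 0.536 times the melanocyte level of 1325 CPM. The melanocyte marker Pax3 was at 0 UMIs in the RPE nuclei.

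**Figure D2:**
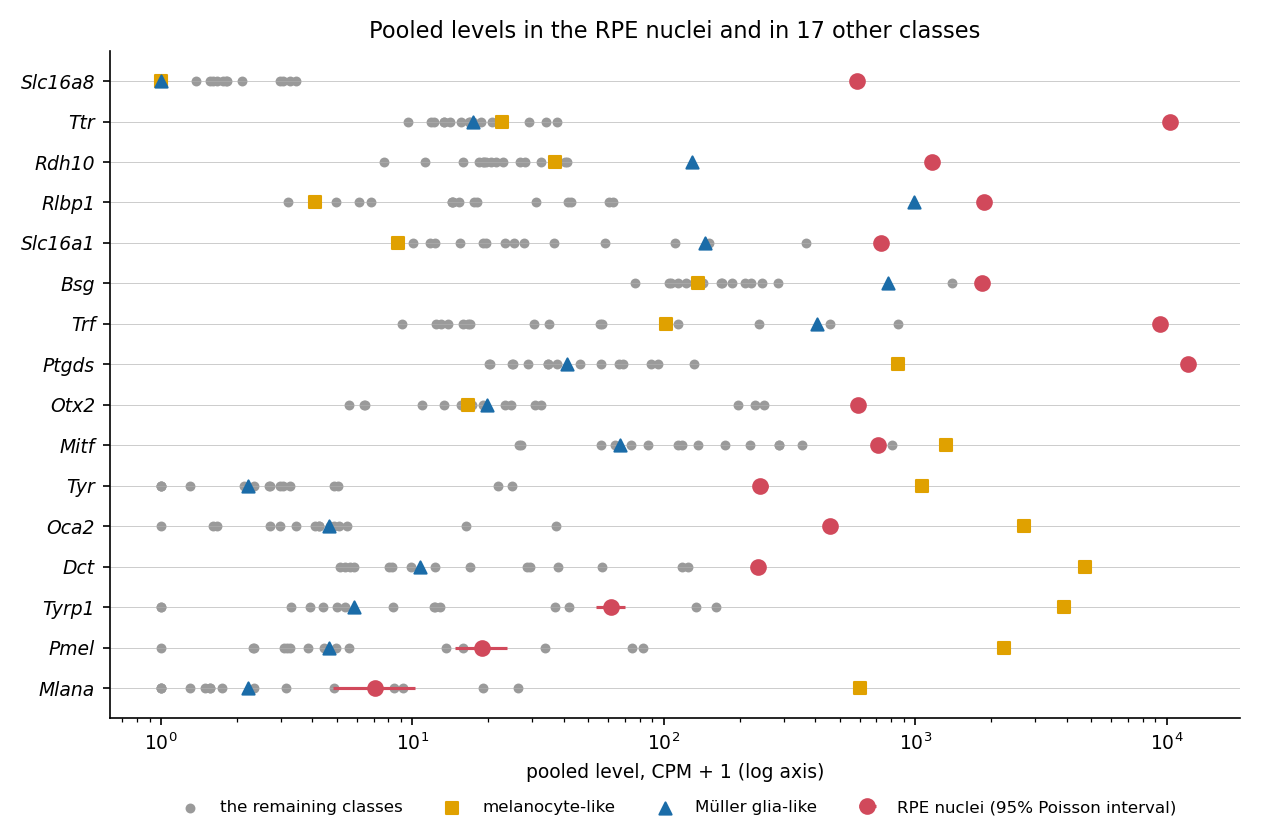
Pooled level of 16 genes (CPM + 1, log axis) in the RPE nuclei (red, with 95% Poisson intervals) and in 17 other classes, with melanocyte-like nuclei as yellow squares and Müller glia-like nuclei as blue triangles. Slc16a8, Ttr and Trf stand far above every other class, whereas melanocyte-like nuclei lead Mitf, Tyr, Oca2, Dct, Tyrp1, Pmel and Mlana.

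Transport genes had 5 of 13 RPE-high members. Slc16a8, the lactate transporter MCT3 of the basal RPE membrane, stood at 586 CPM (561 to 612) and had 1 UMI in horizontal-like nuclei, the next class (2.44 CPM). Slc16a8 was found in 70.4% of RPE nuclei, and in 0 of 572 Müller glia-like nuclei, which allows up to 0.643%, and 0 of 250 melanocyte-like nuclei, which allows up to 1.46%. Slc6a20a, a proline transporter, stood at 1024 CPM (992 to 1058) against 7.44 CPM (2 UMIs) in surface epithelium-like nuclei. The zinc transporter Slc39a12 stood at 291 CPM (274 to 309) against 9.94 CPM, and the dicarboxylate transporter Slc13a3 at 165 CPM (152 to 179) against 30.7 CPM. The partner protein of the lactate transporters, Bsg (basigin), was the highest of the list at 1839.7 CPM (1796 to 1885) but only 1.32 times pericyte and smooth muscle-like nuclei. Slc2a1, the glucose transporter GLUT1, likewise reached 1122 CPM (1087 to 1157) and 1.40 times those nuclei. Endothelium-like nuclei had 122 CPM of Bsg and 184 CPM of Slc2a1. The pericyte and smooth muscle-like nuclei also carried the endothelium marker list, at 6321 CPM summed against 10031 CPM in endothelium-like nuclei. Their levels therefore cannot be given to pericytes or smooth muscle alone. Slc16a3 had 1 UMI in the RPE nuclei.

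Of 14 measured genes for ions and water, 3 were RPE-high. Clic6, a chloride channel protein, stood at 792 CPM (763 to 822) against 56.8 CPM in rod-like nuclei, the anion exchanger Slc4a2 at 602 CPM (576 to 627) against 96.3 CPM, and the carbonic anhydrase Car14 at 885 CPM (854 to 916) against 365 CPM. The cation channel Trpm3 was the highest of the list at 12193 CPM (12079 to 12308), against 7018 CPM in lens-like nuclei. Kcnj13, the apical potassium channel Kir7.1, did not stand apart: it had 342 CPM (323 to 361) in the RPE and 319 CPM in melanocyte-like nuclei.

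Secreted factors had 6 of 13 RPE-high members and a median log2 ratio of 1.18. Ttr, transthyretin, which carries thyroxine and retinol-binding protein, stood at 10241 CPM (10137 to 10346) against 36.6 CPM in horizontal-like nuclei. Ttr was found in 99.7% of RPE nuclei and 2.56% of fibroblast-like nuclei. Ptgds, prostaglandin D2 synthase, was the highest of the list at 12077 CPM (11964 to 12191) against 852 CPM in melanocyte-like nuclei, and Trf, transferrin, stood at 9361 CPM (9262 to 9462) against 854 CPM in myelinating glia-like nuclei. Bmp4 and its relative Bmp2 stood 7.58 and 4.09 times above the next class, and Enpp2 (autotaxin) 3.84 times. The angiogenic factor Vegfa stood at 488 CPM (466 to 512), below the 572 CPM of adipocyte-like nuclei. Its counterpart Serpinf1 (PEDF), known as an RPE product, had 7 UMIs, 1.95 CPM, against 246 CPM in fibroblast-like nuclei.

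Of 14 measured genes of Bruch's membrane and matrix, 3 were RPE-high. Col8a1 and Col8a2, the chains of type VIII collagen, stood at 2893 CPM (2837 to 2949) and 1412 CPM (1373 to 1451), against 211 CPM in pericyte and smooth muscle-like and 73.9 CPM in fibroblast-like nuclei. Timp3, a matrix metalloproteinase inhibitor altered in Sorsby dystrophy and the highest of the list, stood at 4789 CPM (4717 to 4861) against 1350 CPM in endothelium-like nuclei. Timp3 lies within Syn3, and reads of the pair cannot be told apart without a stated strand. Efemp1 and Htra1, genes linked to macular disease, were low in the RPE nuclei, at 4.18 CPM (2.34 to 6.89) and 25.6 CPM (20.6 to 31.4).

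Junction and polarity genes had 3 of 12 RPE-high: Cdh3 (P-cadherin) at 7.56 times the next class, Ermn (ermin, which binds actin) at 6.67 times and Ezr (ezrin, of apical microvilli) at 3.35 times, the last also the highest of the list at 1122 CPM (1087 to 1157). The classical epithelial cadherin Cdh1 had 1 UMI. In a list read for loss of the epithelial state, the RPE-high genes, 2 of 10, were the epithelial keratins Krt8, at 105.5 CPM (95.1 to 117), and Krt18, at 321 CPM (303 to 340). The mesenchymal genes Snai1, Snai2 and S100a4 were at 0 UMIs, and Acta2 stood at 67.6 CPM (59.4 to 76.7) against 581 CPM in pericyte and smooth muscle-like nuclei.

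For outer segment uptake, 2 of 13 genes were RPE-high: the integrin subunit Itgav and the receptor Tyro3, at 2.67 and 3.91 times the next class. Mertk, the receptor kinase of outer segment uptake, stood at 590 CPM (565 to 616), below the 687 CPM of microglia or macrophage-like nuclei, and Itgb5, the partner of Itgav, at 125 CPM (114 to 137) against 576 CPM in horizontal-like nuclei. Among lysosome genes 1 of 16 was RPE-high, the protease inhibitor Cst3 at 4595 CPM (4525 to 4666), while the protease Ctsd stood at 1907 CPM (1862 to 1952), 1.72 times microglia or macrophage-like nuclei. Fatty acid genes had 2 of 15, among them Acsl6, which activates fatty acids, at 921 CPM (890 to 953) and 2.93 times the next class. Lipid handling had 1 of 16, the endocytic receptor Lrp2 at 435 CPM (414 to 457), and its highest gene was the related receptor Lrp1 at 2246 CPM (2198 to 2296), below fibroblast-like nuclei at 3893 CPM. Another class led most genes of these lists: the RPE nuclei stood above every class for 2 of 13 uptake, 2 of 16 lysosome, 2 of 15 fatty acid and 4 of 16 lipid genes. Over all genes tested they did so for 813 of 10247, so these counts are not low for a list.

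Stress and complement genes had 2 of 16 RPE-high, both of antioxidant defence: Nqo1 at 83.0 CPM (73.8 to 92.9) and 5.92 times, and Gpx4, the highest of the list, at 576 CPM (552 to 602) and 4.46 times the next class. Of the 27 list genes 11 had under 20 UMIs, among them Cdkn1a with 5 UMIs, Atf3 with 1 UMI, and Il6 and Ccl2 with 0 UMIs. The metallothioneins Mt1 and Mt2, which bind metals and are outside the lists, were RPE-high at 863 CPM (833 to 894) and 261 CPM (245 to 279), 11.7 and 7.81 times the next class. Of 13 transcription factors, Otx2 was RPE-high at 588 CPM (563 to 614), 2.35 times bipolar-like nuclei, and Rora was the highest at 7250.3 CPM (7163 to 7339), below Müller glia-like nuclei at 7473 CPM. The dorsoventral list had 1 of 7 (Bmp4) and the circadian list 0 of 12, with Dbp its highest at 195 CPM (181 to 210) and 1.25 times Müller glia-like nuclei.

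A further 74 named genes and 9 model genes outside the lists were RPE-high. The 15 of highest ratio began with Tmem72, a membrane protein, at 475 CPM (453 to 498) with 3 UMIs in the next class, and Mfrp, the frizzled-related receptor whose loss causes small eyes and retinal degeneration, at 936 CPM (904 to 968), also with 3 UMIs in the next class. Cltrn (collectrin), Sult1c1 (a sulfotransferase) and Hnf4a, a transcription factor of liver and gut, followed at 153 CPM (141 to 166), 173 CPM (160 to 187) and 121 CPM (109 to 132), each with at most 4 UMIs in the next class. Car12, another membrane carbonic anhydrase, stood at 963 CPM (931 to 995) against 15.8 CPM in lens-like nuclei. The tight junction protein Cldn2 stood at 73.8 CPM (65.2 to 83.2) with 2 UMIs in the next class, while the list genes Cldn3 and Cldn19 were at 0 UMIs. Tmem98, linked to eye size, stood at 555 CPM (530 to 579) and 23.5 times Müller glia-like nuclei. Ermap stood at 157 CPM (144 to 170.2) with 3 UMIs in the next class. The others were Serpine3, Tc2n, Baiap2l2, the GABA and taurine transporter Slc6a13, Arl6ip1 and Col9a3, at 14.9 to 36.2 times the next class. Genes with overlapping neighbours, such as Mfrp (C1qtnf5), Serpine3 (Ints6), Col9a3 (Tcfl5), Rdh5 (Bloc1s1) and Rgr (Lrit1), are uncertain by the reads the pair may share.

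The comparison used named classes only. When unnamed clusters of at least 50 nuclei were counted as classes too, 99 of the 122 genes stayed RPE-high and 23 did not, and for most of the 23 the highest unnamed cluster was cluster 37. That cluster of 80 nuclei scored best for the ciliary and iris epithelium list but did not pass the naming rule. Mfrp stood there at 383 CPM (322 to 453), Slc39a12 at 248 CPM (199.7 to 305), Degs1 at 132 CPM (97.6 to 176) and Cldn2 at 52.4 CPM (31.6 to 81.9). Lrp2, Bmp2, Slc6a13 and Chrnb4 were also lost, at 223 CPM (177 to 278), 77.2 CPM (51.3 to 112), 290 CPM (237 to 351) and 38.6 CPM (21.1 to 64.8) in that cluster. RPE-low genes could be called only among 935 genes with at least 20 UMIs in the RPE nuclei and in every other class. This leaves out genes nearly absent from the RPE nuclei, so the number called does not measure how rare such genes are. Of the 935, 4 (0.428%) had an upper bound at most 0.5 times the lower bound of every other class. They were the flippase Atp8a1, at 10.6 CPM (7.49 to 14.5), Cmip, a signalling adaptor, at 16.4 CPM (12.5 to 21.2), Setbp1 at 20.3 CPM (15.9 to 25.6), and Mxi1, a partner of MAX, at 11.7 CPM (8.43 to 15.8). The lowest other class had 38.8, 68.1, 129 and 42.3 CPM.

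Marker lists of other cell types were then summed in the RPE nuclei. All 10 rod markers were found in the RPE nuclei, at 615 CPM summed against 27779 CPM in rod-like nuclei, where the lowest and highest other classes had 401 and 31339 CPM. The summed melanocyte list stood at 533 CPM against 6906 CPM, fibroblast at 35.4 against 13349.9 CPM, and endothelium at 36.2 against 10031 CPM. The bipolar list, which includes Otx2, stood at 1508 against 16718 CPM with Vsx1 at 0, and the amacrine list at 499 against 3726 CPM. The microglia list stood at 279 against 6170 CPM with C1qa and Ptprc at 0, above the 125 CPM of myelinating glia-like nuclei, the highest of the remaining classes. The Müller list reached 4654 CPM, of which Rlbp1 gave 1867 and Apoe 1559 CPM. Aqp4, a defining Müller marker, was at 0, while the limit on Abca8a and Crb1 was part of the selection. The ciliary and iris list, which has no class of its own, reached 975 CPM with 6 of 9 markers found and Msx1, Zic1 and Zic2 at 0. A ribosomal RNA-like transcript, Gm42418, took 16.5% of RPE UMIs against 7.81% over all kept nuclei. The part of this RNA in the levels above was not tested.

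Position on the chip was not used to choose the nuclei. The kept nuclei lay in 4 pieces of tissue, although the labels name 1 section of 1 eye. Within each piece the RPE nuclei lay along an arc, and a circle fitted to them had a radius of 5934, 6284, 5460 and 6056 coordinate units in pieces 1 to 4 (a unit whose length the sources used here do not give). The median distance to the circle was 47.6 units, and 589 of 625 nuclei lay within 600 units. The other 36 lay mostly outside the circle (32). They were shallower, with a median of 1025 against 3324 UMIs. Col1a1, a fibroblast collagen, stood at 402 CPM (260.2 to 594) in them against 5.95 CPM (3.68 to 9.09). However, 24 of their 25 Col1a1 UMIs lay in 1 nucleus, the fibroblast-like nucleus of 4543 UMIs. The Ttr level of the 36, 10311 CPM (9528 to 11141), was that of the nuclei on the line, 10240.1 CPM (10135 to 10346). Rgr was lower in the 36, at 6917 CPM (6278 to 7602) against 9118 CPM (9018 to 9218).

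**Figure D3:**
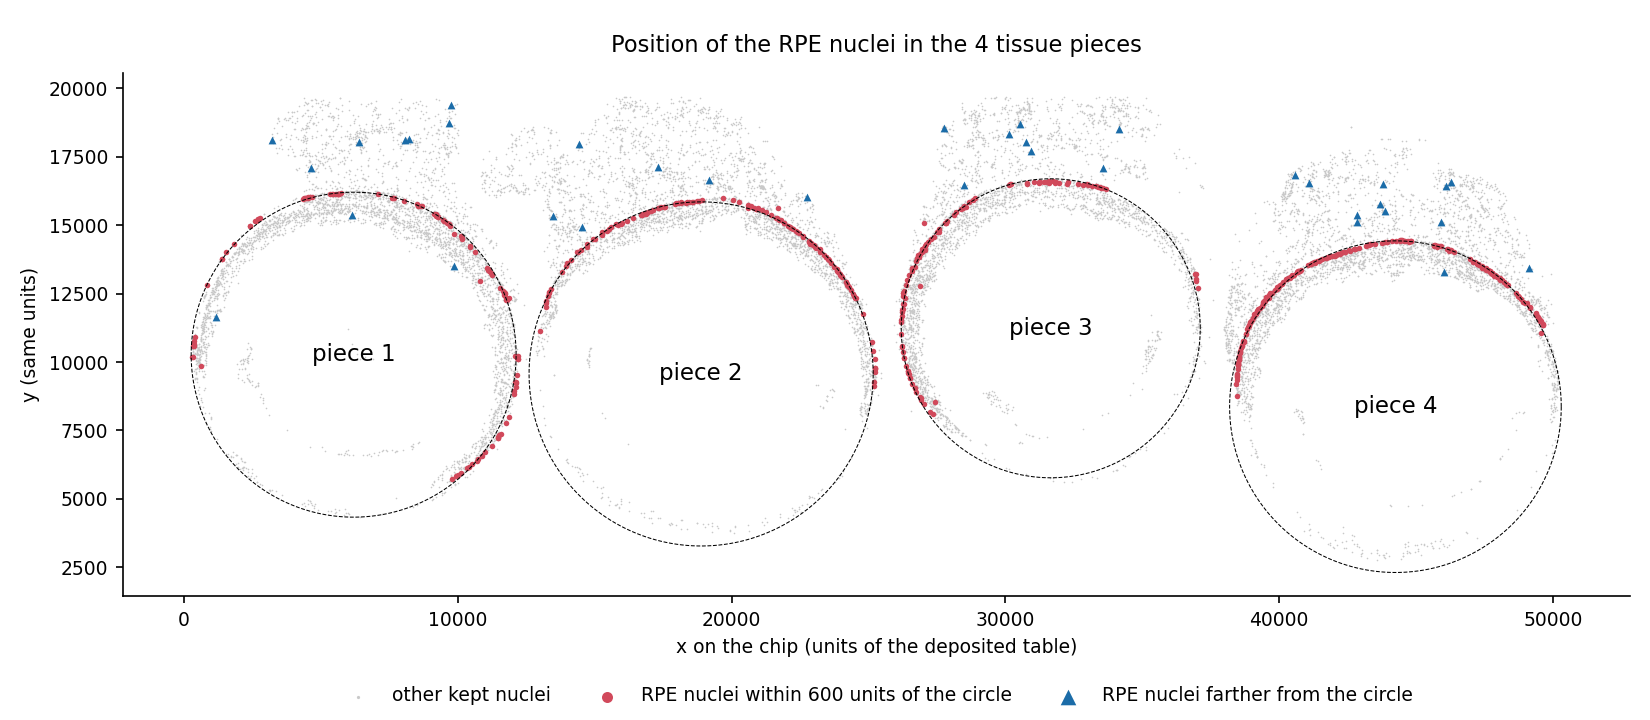
Position of every kept nucleus on the chip (both axes in the units of the deposited table), with RPE nuclei within 600 units of the fitted circle in red and those farther away as blue triangles. In each of the 4 pieces the red nuclei trace the outer edge of the band of retinal nuclei, and 36 lie away from it.

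Classes followed the layers of the eye on both sides of the circle. At angles with RPE, ganglion cell-like nuclei lay farthest inward at a median of 713 units, followed by amacrine-like (499), Müller glia-like (376) and bipolar-like nuclei (334), while rod-like and cone-like nuclei lay 116 and 81.5 units inward. Melanocyte-like nuclei lay outward at a median of 38.2 units and fibroblast-like nuclei at 866 units. The nearest other RPE nucleus was at a median of 47.4 units, the nearest rod-like nucleus at 51.4, the nearest cone-like at 110.0 and the nearest melanocyte-like at 153 units. Among the 20 nearest nuclei, RPE was 4.49 times as frequent as among all kept nuclei (3.02 to 5.99 in the pieces), melanocyte-like 3.03 times (2.87 to 3.32) and cone-like 2.25 times (2.11 to 2.46). Rod-like nuclei made up 42.4% of these neighbours, 1.24 times their share (1.17 to 1.33). Endothelium-like nuclei ranged from 0.590 times in piece 1 to 1.62 times in piece 4. The order from ganglion cells to fibroblasts placed the selected nuclei at the border of photoreceptors and choroid.

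Rod transcripts in the RPE nuclei were set beside the number of rod-like neighbours. The 10 rod markers summed to 532 CPM (495 to 571) in 229 nuclei with 0 to 7 such neighbours, 598 CPM (556 to 642) in 242 nuclei with 8 to 10, and 773 CPM (716 to 833) in 154 nuclei with 11 to 20. Nuclei with the most rod-like neighbours were thus highest. Other classes carried more: fibroblast-like nuclei had 1515 CPM (1453 to 1578) and endothelium-like nuclei 1935 CPM (1851 to 2022) of the rod markers, in nuclei of lower depth.

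Depth varied widely among the RPE nuclei, from 369 to 98029 UMIs, and 32 nuclei over 20000 UMIs held 33.3% of all their UMIs. The shallowest 208 nuclei (median 834 UMIs) and the deepest 209 (median 8411) were compared. Of 9610 genes, 52 (0.541%) were higher in the deep nuclei by the 2-fold rule on bounds, and 4 (0.0416%) in the shallow ones. Of 14 measured visual cycle genes, 4 of them selecting genes whose level in shallow nuclei the rule itself affects, 0 were called in either direction, and no list had more than 1 such gene. Rdh5, which the rule did not use, stood at 2454 CPM (2232 to 2692) in the shallow and 2485 CPM (2427 to 2545) in the deep nuclei. The nuclear transcript Malat1 stood at 3189.8 CPM (2936 to 3459.99) in the shallow and 10518 CPM (10396.5 to 10639.9) in the deep nuclei. Rora went from 1768 CPM (1579.98 to 1972) to 7345 CPM (7244 to 7447), and Trpm3 from 3536 CPM (3268 to 3819.6) to 12202 CPM (12071 to 12333). The middle 208 nuclei resembled the deep ones, at 12878, 8349.6 and 14499.6 CPM for these 3 genes. In the shallow nuclei the share of Gm42418 was 25.7% against 16.4%, the mitochondrial share 2.003% against 1.16%, and 88.5% against 98.6% lay on the line. Genes higher in the shallow nuclei were the muscle genes Ttn and Tnnt3, Serpine3 and Gm19951. Of the 208 shallow nuclei 95 lay in piece 4, where Serpine3 was highest, against 64 of the 209 deep ones. The part of nuclear integrity or of free RNA in these differences was not tested.

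The 4 pieces held 127, 142, 122 and 234 RPE nuclei, or 2.88, 3.38, 3.30 and 5.12% of their kept nuclei, with median depths of 2733, 3666.5, 4275 and 2179.5 UMIs. Labels give the pieces no group, so values stand side by side. Xist, the transcript of the inactive X chromosome, had 3, 0 and 2 UMIs in pieces 1 to 3 and 1130 UMIs, 1123 CPM (1058 to 1190.4), in piece 4. The Y-linked genes Uty, Ddx3y, Eif2s3y and Kdm5d summed to 119.8 (97.6 to 145), 181 (152 to 215) and 123 CPM (102 to 147) in pieces 1 to 3 and to 14.9 CPM (8.34 to 24.6) in piece 4. Piece 4 thus stood apart on both, which the label of 1 eye does not account for. The labels do not give the animals behind the pieces. Within piece 4, Xist was 137 CPM (68.5 to 245) in shallow nuclei and 1218 CPM (1137 to 1304) in deep ones. Among RPE-high genes that the rule did not use, Ttr ranged from 7629 CPM (piece 4) to 14773 CPM (piece 1), Otx2 from 535 CPM (piece 1) to 629 CPM (piece 4) and Rdh5 from 2373 CPM (piece 2) to 2464 CPM (piece 1).

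Of 10247 genes, 101 (0.986%) differed between pieces, the lower bound of the highest piece being at least 2 times the upper bound of the lowest. They were highest in pieces 1 to 4 for 27, 18, 31 and 25 genes. For 57 of the 101 (56.4%) another class stood at least 10 times above the RPE nuclei, as it did for 1336 (13.0%) of the 10247 genes, and the part of other cells' RNA was not tested. The RPE-high genes Serpine3, Wfikkn2, Gpam, Chrnb4 and Tbc1d2 were among the 101. For 12 genes a single nucleus held at least 50% of the UMIs, and without the nucleus of most UMIs for each gene 65 of the 101 were still called. The 10 genes of highest ratio were Xist, Sulf2, Zmat4, Kcnb2, Gsn, Serpina3n, Uty, Tenm2, C4b and Serpine3. Of these, Gsn had 75.3% of its UMIs in the fibroblast-like nucleus named above and was not called without it. Zmat4 and Kcnb2 had 54.9% and 50.5% in the amacrine-like nucleus, and Tenm2 80.5% in 2 nuclei.

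The remaining ones were spread over 29 to 109 nuclei. Sulf2, which trims heparan sulfate, stood at 1.17 CPM (0.0297 to 6.54), 74.9 CPM (56.4 to 97.5), 81.0 CPM (64.3 to 101) and 3.98 CPM (1.08 to 10.2) in pieces 1 to 4, found in 31 nuclei of each of pieces 2 and 3. C4b, a complement component with the near-identical copy C4a, stood at 5.87 CPM (1.91 to 13.7), 50.4 CPM (35.5 to 69.4), 88.0 CPM (70.6 to 108) and 4.97 CPM (1.61 to 11.6). Pieces 2 and 3 were high for both genes and pieces 1 and 4 low, without overlap of the intervals. The acute phase gene Serpina3n stood at 1.17, 9.53, 54.0 and 0.994 CPM in pieces 1 to 4, high in piece 3. A2m, a protease inhibitor of blood plasma that stood higher in the RPE nuclei (800.3 CPM) than in any other class, was likewise highest in pieces 2 and 3, at 323 CPM (286 to 363), 952 CPM (882 to 1025), 1471 CPM (1397 to 1548) and 427 CPM (388 to 470), and was found in 406 nuclei. Pcolce, an enhancer of procollagen processing, stood at 402, 655, 819 and 203 CPM, and Gpam, which starts triglyceride synthesis, at 696, 935, 1447 and 568 CPM. Piece 3 was highest for all 3. Serpine3 ran the other way, at 77.5, 16.3, 14.003 and 167 CPM, but most of its UMIs in piece 4 came from 1 part of the arc (below). These differences are between regions of 1 library, and genotype, animal, sex, eye region and handling cannot be told apart for them.

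**Figure D4:**
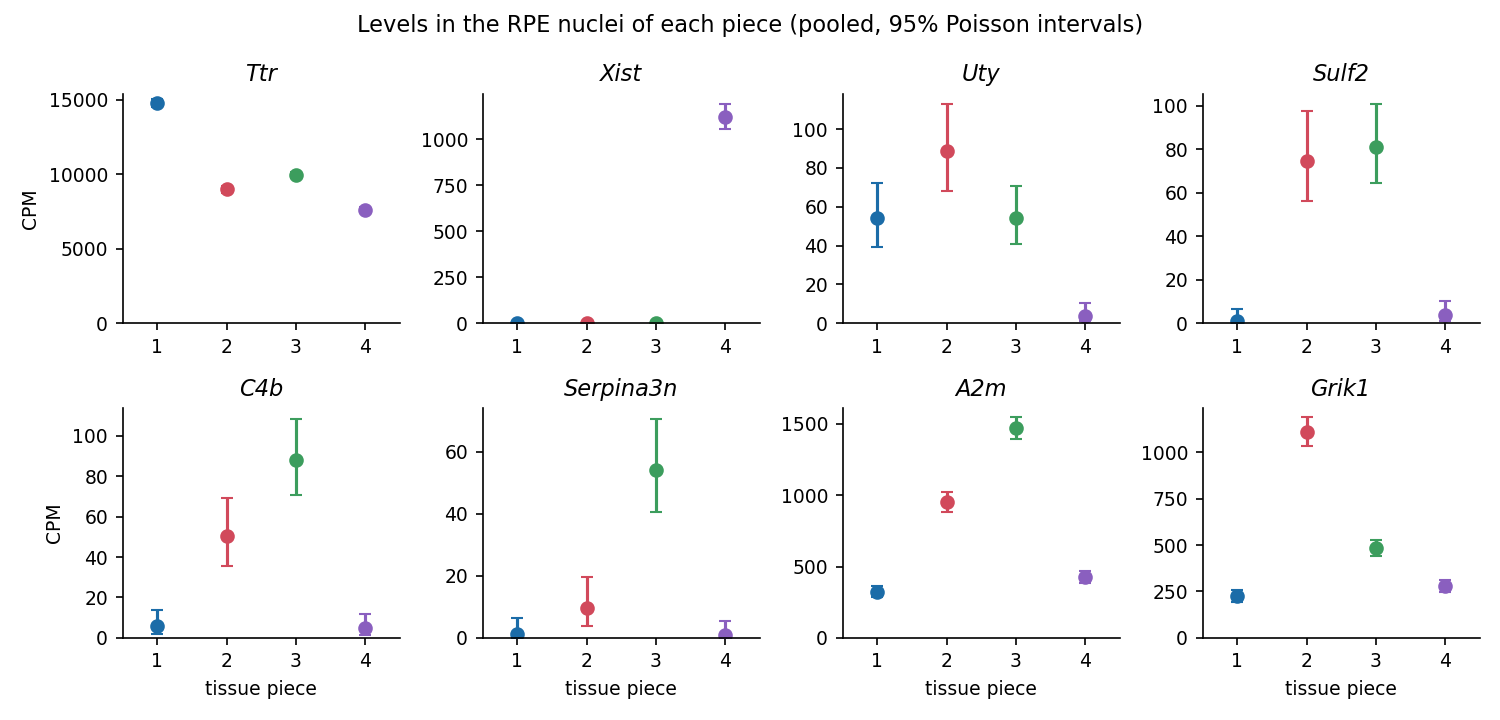
Pooled levels (CPM, 95% Poisson intervals) of 8 genes in the RPE nuclei of tissue pieces 1 to 4. Ttr is highest in piece 1 and lowest in piece 4, Xist is high in piece 4 and Uty low there, Sulf2 and C4b are high in pieces 2 and 3, A2m and Serpina3n are highest in piece 3, and Grik1 is highest in piece 2.

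Variation along the epithelium within pieces was measured by Moran's I over the 10 nearest RPE nuclei of the same piece, which is near 0 when neighbours are no more alike than others. Over 5857 genes found in at least 10% of the nuclei, its median was -0.00468 and its 99th percentile 0.0520. The highest values were those of the kainate receptor Grik1 (0.208), Trpm1 (0.185), the melanosome and lysosome protein Gpnmb (0.173), the mitochondrial subunit Cox8b (0.171), Trf (0.152), Kcnab1 (0.151), Car10 (0.136), Gm48099 (0.133), Ttr (0.123) and the growth factor Igf2 (0.101). Trf was patterned in every piece, at 0.111 to 0.168, whereas Cox8b was so in pieces 1 and 2 (0.249 and 0.244) and not in pieces 3 and 4 (0.0222 and -0.0159). Among lists, secreted factors had the highest median, 0.0623 over 10 genes, against 0.0207 for the visual cycle over 13 genes. Another class led 7 of the 10 genes of highest Moran's I, all but Trf, Ttr and Igf2. This is common, since the RPE nuclei stood above every class for only 813 of the 10247 genes with at least 20 UMIs. Bipolar-like or amacrine-like nuclei led Grik1, Trpm1, Kcnab1 and Car10, at 2941, 4156, 638 and 3575 CPM. Skeletal muscle-like nuclei led Cox8b and Gm48099, at 220.05 and 2131 CPM, and melanocyte-like nuclei led Gpnmb, at 2332 CPM. The part of their RNA in these patterns was not tested.

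Nuclei on the circle were then divided by angle into the top of each piece (within 45° of the upward direction, 310 nuclei) and the sides (279 nuclei). The left and right sides were uneven, with 13 and 52 nuclei in piece 1 and 14 and 36 in piece 2. In pieces 3 and 4 they held 67 and 5, and 68 and 24 nuclei. Of 10184 genes, 24 (0.236%) were higher at the sides and 5 (0.0491%) at the top; 20 and 5 remained without the nucleus of most UMIs. Of 15 measured genes of the melanin list, 3 (Tyrp1, Pmel and Mlph) were called higher at the sides and 0 at the top. Gpnmb, of the lysosome list, stood at 43.1, 102, 52.8 and 42.2 CPM at the top of pieces 1 to 4 and at 354, 365, 248.9 and 121 CPM at the sides, with pooled levels of 58.5 CPM (48.2 to 70.4) and 273 CPM (248.5 to 300.2). Tyrp1 rose in each piece too, from a pooled 16.7 CPM (11.4 to 23.6) to 109 CPM (93.4 to 126), and Dct moved the same way in 4 of 4 pieces without passing the rule, at 159 CPM (142 to 178) and 325 CPM (298 to 354). With left and right pooled, Gpnmb, Tyrp1 and Dct were thus higher at the sides of all 4 pieces, whereas Tyr, at 226 CPM (205 to 248) and 261 CPM (237 to 287), and Oca2 were higher in only 2 of 4. The right side of piece 4 alone had 1 UMI of Tyrp1, 10.8 CPM (0.273 to 60.1), against 19.5 CPM at the top. Pmel went from a pooled 4.18 CPM (1.80 to 8.24) to 29.7 CPM (21.9 to 39.4) but was higher at the top of piece 4, at 11.4 against 2.69 CPM, and Mlph was not called without its nucleus of most UMIs. Melanocyte-like nuclei led Gpnmb, Tyrp1, Dct, Pmel and Mlph, and their part was not tested.

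Genes higher at the sides that melanocyte-like nuclei did not lead included Lrrc7, a postsynaptic scaffold protein, at 137 CPM (121 to 155) at the top and 355 CPM (327 to 385) at the sides, and Wfikkn2, a secreted protein with protease inhibitor domains, at 60.6 CPM (50.1 to 72.7) and 209.7 CPM (188 to 233), which in other classes reached at most 16.97 CPM. Both were higher at the sides of every piece, and Lrrc7 reached 246 CPM in ganglion cell-like nuclei. Serpine3 was also called higher at the sides, at 135 CPM (118 to 154) against 5.23 CPM (2.51 to 9.61) at the top. Of its 168 UMIs in piece 4, 157 lay at the left side. The 5 genes higher at the top were Grik1, Igf2, Afap1l2, Pde3a and Trhde. Bipolar-like nuclei had 2941 CPM of Grik1, myelinating glia-like nuclei 561 CPM of Afap1l2 and horizontal-like nuclei 3175 CPM of Pde3a. The part of their RNA was not tested. For Trhde and Igf2 other classes reached at most 280 and 133 CPM. Igf2 stood at 369, 170.0, 380.3 and 240.4 CPM at the top of pieces 1 to 4 and at 78.6, 68.3, 115 and 110.1 CPM at the sides. Trhde, the enzyme that degrades thyrotropin-releasing hormone, stood at 649 CPM (613 to 686) at the top and 279 CPM (254 to 306) at the sides, and Afap1l2, an adaptor of SRC signalling, at 78.9 CPM (66.8 to 92.5) and 21.7 CPM (15.1 to 30.1). Igf2, Trhde, Afap1l2 and Pde3a were higher at the top in 4 of 4 pieces, and Grik1 in 3 of 4. Rdh5 stood at 2503 CPM (2433 to 2575) at the top and 2330.4 CPM (2257 to 2406) at the sides, higher at the top in 3 of 4 pieces and not called. The sources used here do not say where the top lies in the eye.

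**Figure D5:**
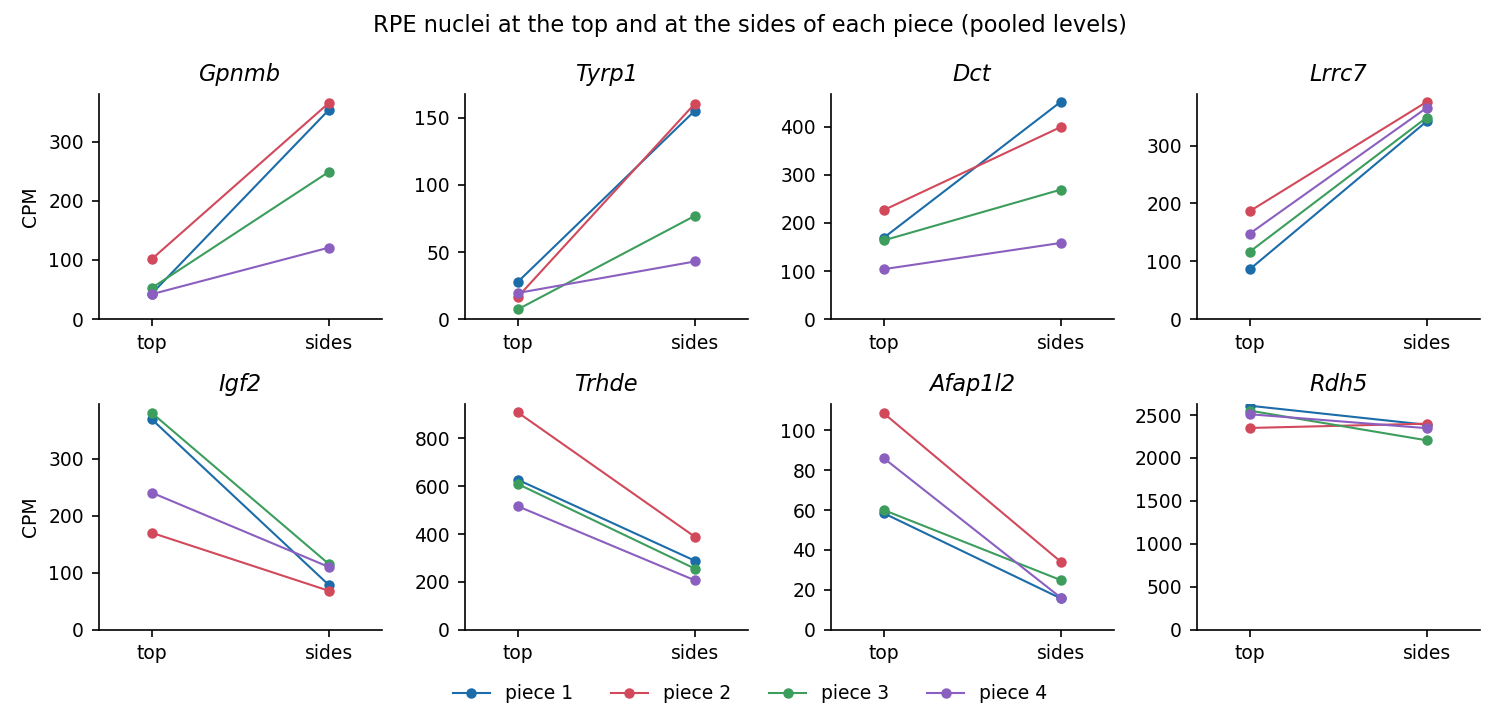
Pooled levels (CPM) of 8 genes in the RPE nuclei at the top and at the sides of each piece, 1 line per piece. Gpnmb, Tyrp1, Dct and Lrrc7 rise from top to sides in all 4 pieces, Igf2, Trhde and Afap1l2 fall in all 4, and Rdh5 falls in 3 of 4.

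Finally, each piece was split at the median x of its nuclei into a left and a right portion, and the dorsoventral list was read there. In mouse retina the short-wave opsin Opn1sw dominates in ventral cones, and its share of cone opsin UMIs differed between the portions of every piece: 23.7% left against 58.0% right (piece 1), 21.2 against 68.0% (piece 2), 61.0 against 29.2% (piece 3) and 49.9 against 19.4% (piece 4). In every piece the side of the arc with more nuclei lay toward the portion of higher Opn1sw share. Differences between sides and top therefore cannot be told apart from differences along this axis. Tbx5, a dorsal transcription factor of the eye, was read in the RPE nuclei alone. It had 20 UMIs in 16 nuclei left against 2 UMIs right in piece 1, and 15 UMIs in 10 nuclei left against 0 right in piece 2. In piece 3 it had 1 UMI left against 16 UMIs in 8 nuclei right, and in piece 4 it had 0 left against 10 UMIs in 4 nuclei right, 7 of them in 1 nucleus. In all 4 pieces Tbx5 had more UMIs in the RPE nuclei of the portion with the lower Opn1sw share. Levels there were 94.7 CPM (57.8 to 146), 51.9 CPM (29.1 to 85.7), 57.1 CPM (32.6 to 92.7) and 19.9 CPM (9.57 to 36.7), in pieces 1 to 4. The ventral factor Vax2 was sparse, with 6 against 1, 11 against 1, 19 against 0 and 1 against 1 UMIs in the portions of high and low Opn1sw share of pieces 1 to 4. The portions differ in total UMIs (640504 and 211248 in piece 1), and the Vax2 levels were 9.37 CPM (3.44 to 20.4) against 4.73 CPM (0.120 to 26.4) in piece 1, 24.7 CPM (12.3 to 44.2) against 3.46 CPM (0.0877 to 19.3) in piece 2, and 26.4 CPM (15.9 to 41.2) against 0 CPM (0 to 13.2) in piece 3. The intervals of the portions overlapped in pieces 1, 2 and 4. The other measured list genes (Bmp4, Tbx2, Efnb1, Ephb2 and Ephb3) had no direction shared by all 4 pieces. Trf was higher in the left portion of every piece, at 10802.5, 9862, 11272 and 10738.5 CPM against 9464, 6550.1, 8291 and 7303 CPM. The left portion had the lower Opn1sw share in pieces 1 and 2 and the higher in pieces 3 and 4, so Trf had no shared direction by that share. By arc, its left side stood below the top in pieces 1 and 3, at 9201 and 9610 CPM against 9357 and 11185 CPM. It stood above the top in pieces 2 and 4.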

How the data were processed

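Nuclei of T1, per the labels 1 mouse eye section, were profiled by SeekSpace in an expression library and a position library. Raw UMI counts per gene and barcode, a feature table and a table of chip positions (with other, unstated units) were deposited by the authors. STAR, fastp, mm10 and Seurat 4.1.1 are named in the submitters' processing notes. The sources used here do not give their roles, the annotation release, strand, treatment of introns or cell calling. Both samples have no group in the labels, so no comparison of genotypes and no p-value was made.

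Barcodes with at least 200 genes and under 10% mitochondrial UMIs were kept. All were clustered with scanpy 1.11.5 and leidenalg 0.10.2 in Python 3.11.15 (counts scaled to 10000, 2000 variable genes, 30 components, 15 neighbours, resolution 1). A cluster was named when its best marker list scored at least 0.25, the next list at most 0.6 of that, and at least 3 markers were found; 6 clusters (1435 nuclei) stayed unnamed. Names rebuilt in this way may differ from the study's. No doublet caller was run. Genes with at least 20 UMIs were compared by exact Poisson bounds (SciPy 1.17.1) at 95%, with a ratio of 2. Nuclei were thinned to 500 UMIs for shares. Pieces came from DBSCAN (400 units, 5 nuclei), with 671 loose nuclei joined to the nearest piece. Offsets were taken within 1500 units of the circle and within the angles of its RPE. Moran's I used log values centred within each piece. The code was tested on simulated data.

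The RPE nuclei and the lists were chosen with earlier results of these data known, and the naming thresholds, pieces, circle, its 600-unit limit, 45° arcs and 5 of the alternatives after seeing the data. Genes named were the selecting genes with Slc16a1 and Rdh10; per list up to 4 RPE-high genes by ratio and the highest; the 15 of highest ratio outside the lists; up to 5 RPE-low genes; the 10 highest for Moran's I and between pieces; and the dorsoventral list. Other genes named were chosen after their values were seen. Gene positions are those of RefSeq GRCm38.p6, matched by symbol. Some genes are not reported here.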

Additional observations from a re-analysis of the deposited data

How the results depend on the processing

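Of 114 values under alternative settings, 95 stayed within their counting interval (levels) or within 1.5 times (other values), and 19 did not; the cause was not tested. The 122 RPE-high genes became 50 after thinning to 500 UMIs and 81 at a ratio of 3, and the 101 genes between pieces became 34 at a ratio of 3. Of the 10 genes of highest Moran's I, 3 stayed among the highest 10 after thinning, where 4 of them could still be tested among 543 genes. Over 18 alternatives each, Slc16a1 ranged from 618 to 899 CPM and Rdh10 from 1108 to 1436 CPM. Alternatives chosen after seeing the data gave 123 RPE-high genes and 100 between pieces without nuclei off the line, 119 and 97 without those over 20000 UMIs, 121 and 103 without the shallowest 208, and 121 and 71 without the nucleus of most UMIs of each gene. Counting unnamed clusters as classes left 99 RPE-high genes. Depth limits genes under 20 UMIs, which were not compared, and levels at 0, which allow up to 0.835 CPM. No paired analysis was possible because the labels put neither sample in a group and the counts come from 1 expression library.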
